A study of Mus musculus with 21 samples.

Results

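Interferon-stimulated genes are genes whose transcription rises in most cells after contact with interferon. A list of 39 of them, taken by symbol, was followed through mammary tumours and hematopoietic stem cells (HSC) of the mouse. All 39 were present among the 19241 genes of each tumour table. Of these, 35 were present in HSC, among 13513 genes for sedentary and active HSC and 13636 genes for active and transplant HSC. Ifit3, Ifit3b, Mx2 and Ifi27l2a were not analysed here in HSC. The members were ordered by what their products do, into 8 roles: IFIT proteins, the ISG15 system, nucleotide and RNA enzymes, dynamin-like GTPases, oligoadenylate synthetases, transcription factors, nucleic acid sensors and other induced genes.

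Type I and type III interferons bind receptors that activate the kinases JAK1 and TYK2, which phosphorylate STAT proteins. A complex that holds STAT2 and IRF9 then binds a short promoter motif, the interferon-stimulated response element, and the induced genes block viral replication, mark or cleave RNA, and set the amount of sensors and signalling proteins for a later response. Type II interferon acts through another motif, the gamma-activated site, and induces an overlapping set of genes. In tumours these genes are read as a trace of interferon signalling in tumour, stromal or immune cells, and in HSC lasting interferon exposure is known to alter their resting state.

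RNA was sequenced from MMTV-PyMT mice, which carry a viral oncogene under a mammary promoter and develop mammary tumours. The 21 libraries formed 7 groups of 3 biological replicates. Mammary tumours came from sedentary and from physically active mice at week 12 and at week 18. Freshly sorted HSC came from sedentary and from physically active mice at week 12, and at week 14 from sedentary mice that had received cells of a physically active mouse, called transplant HSC here. Every group carried the same MMTV-PyMT genotype. The kind of activity, the mouse strain, the cells transplanted and the sorting markers are not given in the sources used here. The transplant group differed from both other HSC groups in week as well as in transplantation. Its sedentary hosts also set it apart from active HSC, and its active donor from sedentary HSC. These differences cannot be told apart. All p-values measure the spread between 3 libraries per group, and how many mice stand behind a library is not given in the sources used here.

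Tumour libraries held 20838963 to 28973775 reads assigned to genes. HSC libraries held 16406889 to 24574563 reads in replicates 1 and 2 of each group and at least 58500940 in each replicate 3. Luminal epithelium markers were present in all 12 tumours, with 10 of 10 listed and summed normalised values of at least 65888. All 10 stem cell markers were listed in HSC, but 9 of the 10 were listed in tumours too, so this does not tell HSC from tumour. Active tumour replicate 3 of week 12 stood apart, with a summed T cell marker value of 14295 against 326 to 479 in the other 5 tumours of that week. One HSC library could not be settled: active replicate 2, numbered 6, stands in both HSC tables under different column names. Between its columns 13086 of 13380 shared genes had unequal read numbers, whereas each of the other 2 active libraries had 4 such genes. For the members named below, results that rest on these libraries are also given without them or with the other column.

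Promoter stretches show which members carry the response element letter by letter. RefSeq promoters (GRCm38.p6, the assembly of the mm10 build, from 250 bases before to 50 after each start) were found for 30 of the 39 members. The core of the response element (GAAA, any 2 letters, GAAA) was searched on both strands and occurred in 17 of the 30 (56.7%), against 3.99% of 27025 genes with a promoter in the same table. TTCNNNGAA, the core of the gamma-activated site, occurred in 7 of the 30 (23.3%), against 9.55% of those genes. The stretches below run 5′ to 3′ on the strand of the gene, with the matched letters in capitals (read from the other strand, the response element begins and ends with TTTC). Ifit3 lies at chr19:34583365-34583424 on the plus strand and Ifit3b at chr19:34607761-34607820 on the plus strand, and both are shown because the genes are near copies and their log2 differences between active and sedentary tumours were among the lowest of the members at week 12. Isg15 (chr4:156200856-156200915 on the minus strand) is shown for its 3 overlapping matches, Bst2 (chr8:71537565-71537624 on the minus strand) because it had the smallest p-value of the members in tumours at week 18, and Rsad2 (chr12:26456538-26456597 on the minus strand) and Oas3 (chr5:120777700-120777759 on the minus strand) because both rose in transplant HSC. Gbp7 (chr3:142530258-142530317 on the plus strand) is shown as a further member that carries the same letters. Of the genes shown, Rsad2 and Oas3 alone passed the main test used below, in transplant against sedentary HSC.
Ifit3: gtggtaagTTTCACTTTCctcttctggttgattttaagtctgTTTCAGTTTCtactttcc
Ifit3b: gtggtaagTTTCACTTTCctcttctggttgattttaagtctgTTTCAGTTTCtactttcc
Isg15: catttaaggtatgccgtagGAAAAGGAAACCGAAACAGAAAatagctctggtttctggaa
Bst2: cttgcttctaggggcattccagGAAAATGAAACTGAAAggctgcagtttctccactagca
Rsad2: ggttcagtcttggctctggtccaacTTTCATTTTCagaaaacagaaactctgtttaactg
Oas3: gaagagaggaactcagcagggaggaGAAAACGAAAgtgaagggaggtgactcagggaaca
Gbp7: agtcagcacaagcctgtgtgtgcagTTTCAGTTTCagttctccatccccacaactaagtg
The Ifit3 and Ifit3b stretches are the same 60 letters. The 13 members without a match included Ifit2, Cmpk2 and Irf7, which means only that these letters are not in this window.

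Several members are neighbours in the genome (GENCODE M21, GRCm38). The 4 IFIT genes lie together on chromosome 19 between 34550694 and 34650009. Rsad2 and Cmpk2 sit side by side on chromosome 12, with Rsad2 at 26442746 to 26456452 on the minus strand and Cmpk2 at 26469204 to 26479837 on the plus strand. Oas1a, Oas2 and Oas3 lie on chromosome 5 between 120730333 and 120907521. Some members share sequence with a copy, so reads could be divided between them: 51.2% of the 50-base words of Ifit3 transcripts were also in Ifit3b, 57.6% of those of Oas1a were in Oas1g, and 3.86% of those of Mx1 were in Mx2. Values of Ifit3, Ifit3b and Oas1a are therefore uncertain as values of 1 gene.

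Levels differed widely between members. On the scale of normalised value per kilobase of exon, the highest median over the 12 tumours was that of Bst2, a membrane protein that tethers budding virus, at 3365 per kilobase (1325 to 4427), and Lgals3bp, a secreted glycoprotein, followed at 2674. Oas3, an oligoadenylate synthetase, was lowest at 88.1 per kilobase (12.8 to 142). In HSC, with both columns of active replicate 2 counted, the order began with the same pair, Bst2 at 1469 per kilobase and Lgals3bp at 1288. It ended with Mx1 at 1.52 and Ifi44 at 1.31. No member fell below 59 reads in any tumour. In HSC 13 of the 35 members had fewer than 10 reads in at least 1 library, among them Ifit1, Mx1 and Ifi44, so their differences there rest on few reads. Ifi27l2a, a small mitochondrial membrane protein, was the most uneven member in tumours, with a ratio of 87.5 between its highest and lowest tumour, whereas Ifi35 had a ratio of 1.63.

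**Figure D1:**
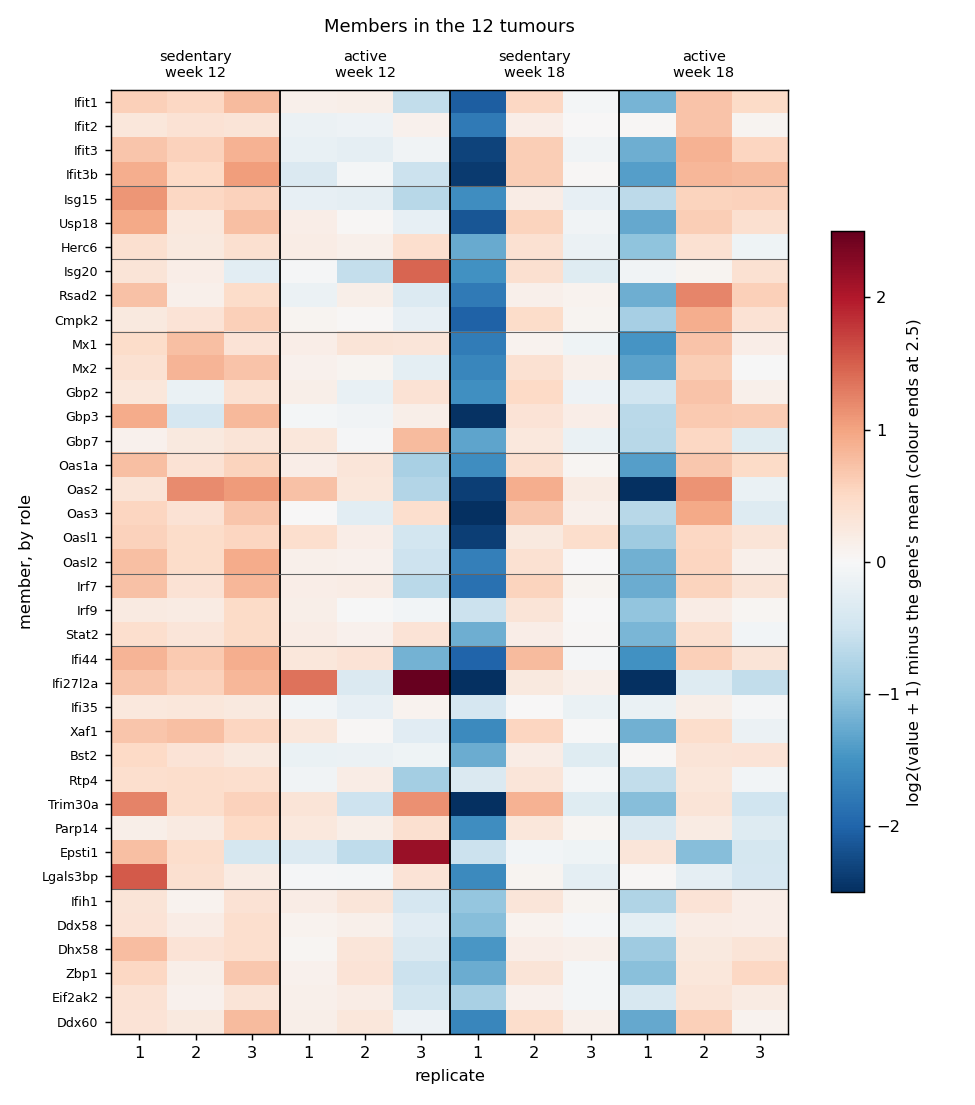
Log2(value + 1) of each of the 39 members (rows, by role) in the 12 tumours (columns, 3 replicates per group), minus the member's mean over the 12 tumours, in colour. At week 18 the replicate 1 tumour of each group is below the other 4 tumours at 33 of 39 members.

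A score per library, the mean of log2(value + 1) over the members, summarised these patterns and was not tested. Scores of sedentary tumours at week 12 were 10.69, 10.48 and 10.65, and those of active tumours were 10.23, 10.13 and 10.14. At week 18 sedentary tumours scored 8.48, 10.47 and 10.10 and active tumours 9.21, 10.57 and 10.24. All active scores of week 12 thus lay below all sedentary ones, whereas at week 18 the groups overlapped and each held 1 low tumour. In HSC the scores were 6.71, 6.51 and 6.41 in sedentary, 6.79, 6.92 and 6.64 in active and 6.85, 6.84 and 7.04 in transplant libraries, so the transplant libraries all lay above the sedentary ones. With a median in place of the mean, the difference of the HSC scores from sedentary HSC was 0.00428 for transplant instead of 0.367, and -0.266 for active instead of 0.238. The spread between sedentary tumours was 0.11 (SD, n = 3) at week 12 and 1.06 at week 18.

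**Figure D2:**
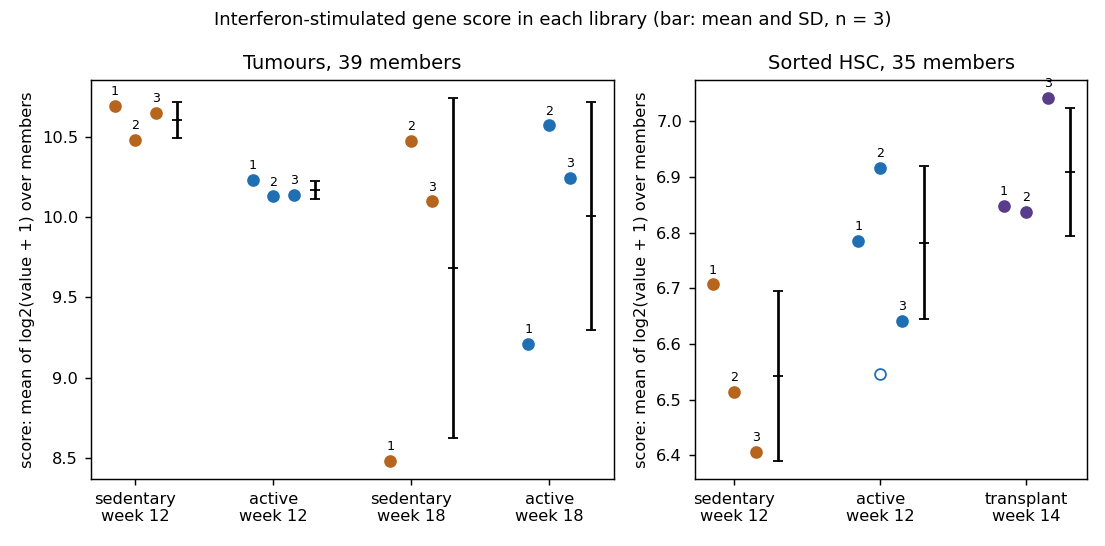
Score of each library (points, labelled by replicate) as the mean of log2(value + 1) over 39 members in tumours and 35 in HSC, by group, with mean and SD (bars, n = 3) and an open point at 6.55 for the other column of active HSC replicate 2. Replicate 1 of sedentary tumours at week 18 is the lowest tumour at 8.48.

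The first comparison asked how tumours of active mice differed from those of sedentary mice at week 12. Most interferon-stimulated genes lay lower in the active tumours: 35 of 39 lay below 0, against 48.3% of all genes, and their median log2 difference was -0.47 against 0.01 over all genes. At 21 members every active tumour was below every sedentary tumour, against 4.78% of all genes. No single member passed an adjusted p-value of 0.05 in limma, the moderated linear model used throughout, where 0.517% of 19162 genes did. At an unadjusted p-value under 0.05 there were 11 members, all lower, against 2.49% of all genes in that direction. edgeR also called 0 members, and DESeq2 called 4, against 1.09% of all genes.

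The IFIT proteins, which bind foreign RNA ends and block its translation, had a median log2 difference of -0.81, with 0 of 4 higher. Ifit3 had normalised values of 1998, 1839 and 2263 in sedentary and 1095, 1055 and 1163 in active tumours. Its groups did not overlap, and its log2 difference was -0.88 ± 0.15 (SE, n = 3 per group throughout), with a limma adjusted p-value of 0.183. Ifit3b had 1031, 781 and 1136 in sedentary and 428, 529 and 379 in active tumours. Again no active tumour reached a sedentary one, and the log2 difference was -1.14 ± 0.22 (limma adjusted p-value 0.280). Ifit1 and Ifit2 differed by -0.75 and -0.38 on the log2 scale, also without overlap.

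The ISG15 system, a ubiquitin-like tag with its protease and ligase, had a median of -0.66. Isg15, the tag itself, had values of 1829.7, 1217 and 1276 in sedentary and 743, 728 and 529.7 in active tumours. Its lowest sedentary tumour was above its highest active tumour, and the log2 difference was -1.10 ± 0.24 (limma adjusted p-value 0.425). Usp18, the protease that removes the tag and restrains the receptor, differed by -0.66, and Herc6, a ligase, by -0.10. The oligoadenylate synthetases, which make the messenger that activates RNase L, were all below 0 with a median of -0.67. Oasl2 showed the largest size among them at -0.81, with no overlap between the groups.

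The transcription factors were also below 0, and Irf7, which drives the later interferon response, had 6079, 4679 and 6487 in sedentary and 4063, 4113 and 2276 in active tumours. Active replicate 3 was lowest, and the log2 difference was -0.76 ± 0.30 (limma adjusted p-value 0.970). Stat2 and Irf9, partners in the signalling complex, differed less, by -0.19 and -0.28. Among the sensors the median was -0.35, from -0.51 for Dhx58, a regulator of RNA sensing, to -0.23 for Ifih1, which detects long double-stranded RNA. Bst2 had values of 3506, 3130.0 and 2946 in sedentary and 2219, 2225 and 2288 in active tumours. The active tumours were within a narrow band below the sedentary ones, with a log2 difference of -0.51 ± 0.14 (limma adjusted p-value 0.808).

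The 4 members above 0 were Ifi27l2a, Isg20, Epsti1 and Gbp7. Ifi27l2a had values of 1279, 1172 and 1392 in sedentary and 2003, 609.9 and 7536 in active tumours, so its log2 difference of 0.71 ± 0.91 rested on active replicate 3. Isg20, an RNA exonuclease, had 205, 184 and 137 in sedentary and 159, 107 and 449 in active tumours. Gbp7, a guanylate-binding GTPase, had 1163, 1276 and 1346 in sedentary and 1312, 1059 and 1876 in active tumours. Replicate 3 was the highest active tumour for these 3 genes, and their groups overlapped. Without that tumour all 39 members lay below 0, the median was -0.40, and 26 members had groups that did not overlap, against 9.71% of all genes in that direction.

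Active replicate 3 of week 12 also had the highest summed markers of B cells, at 22799 against at most 1841 in the other active tumours, and of plasmacytoid dendritic cells, at 8304 against at most 3082. Its summed luminal epithelium markers were the lowest of the week, at 65888. It was the lowest tumour of the week at 22 of 39 members and the highest at 5, against 28% and 34.1% of all genes. In bulk tissue fewer cells of a type and less RNA per cell cannot be told apart. Summed skeletal muscle markers were 51033 to 110958 in sedentary and 282 to 1249 in active tumours of week 12, and their part in the result was not tested. By the authors' deposited table, Ifit3b, Ifit3, Isg15 and Bst2 passed an adjusted p-value of 0.05, all 4 lower in active tumours, with log2 fold changes of -1.16, -0.90, -1.13 and -0.52, against 1.06% of all genes.

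Genes upstream of the members lay mostly above 0 at week 12. Of 6 interferon receptors 5 lay above 0 with a median log2 difference of 0.13, and of 9 genes of JAK-STAT signalling and its brakes 8 did, with a median of 0.16. None was called by limma. Of all genes 48.3% lay below 0. The receptor and JAK-STAT counts include active replicate 3 and are not given without it. Irf1, a factor induced by both interferon types, differed by 0.25, and the type I receptor chains Ifnar1 and Ifnar2 by 0.16 and 0.11. Genes that lean to type II interferon went above 0 at 14 of 18 with a median of 0.54, but without active replicate 3 only 5 of 18 did and the median was -0.15. A list of 39 other type I interferon induced genes split into 18 above and 21 below 0, with a median of -0.09, and 10 above and 29 below without that tumour. Interferon ligand genes were not analysed here.

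At week 18 the same comparison gave values on the other side of 0 and a far wider spread. Here 34 of 39 members were above 0, against 51.1% of all genes, and the median log2 difference was 0.29 against 0.01. No member was called by limma, where 0% of 18939 genes were, and no member had an unadjusted p-value under 0.05, against 5.97% of all genes. Groups overlapped at all 39 members, whereas 13.6% of all genes showed no overlap. edgeR and DESeq2 called 0 members as well.

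The replicate 1 tumours lay apart from the others. Sedentary replicate 1 was the lowest of the 6 tumours at 35 of 39 members, against 26.2% of all genes, and at 33 members both replicate 1 tumours were below the other 4, against 12.8% of all genes. Ifit2 had values of 271, 1029 and 925 in sedentary and 939, 1513 and 961 in active tumours. Sedentary replicate 1 was far below the rest, and the log2 difference was 0.80 ± 0.57 (limma adjusted p-value 0.824). Bst2 had 1049, 2806 and 2015 in sedentary and 2524, 3100.0 and 3139 in active tumours. One sedentary tumour lay within the active range, and the log2 difference was 0.68 ± 0.39 (limma adjusted p-value 0.824). Isg15 had 288, 965 and 743 in sedentary and 541, 1261 and 1267 in active tumours, with both replicate 1 tumours low. Its log2 difference was 0.69 ± 0.58 (limma adjusted p-value 0.829).

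Among the 5 members below 0, Irf9 had 1854, 3376 and 2702 in sedentary and 1368, 3054 and 2771 in active tumours. Epsti1, a gene first found in epithelial and stromal cells of breast tumours, had 434, 597 and 587 and 773, 301 and 464. Rtp4, a chaperone-like membrane protein, had 1839, 2919 and 2283 and 1539, 2898 and 2249. Their log2 differences were -0.18, -0.16 and -0.10, each smaller than its SE, and their groups overlapped. Without sedentary replicate 1 the median over all members was -0.26, with 8 above and 31 below 0. That leaves in the active tumour of the same number. At week 18 the numbers were taken as pairs. The labels do not state pairs, which were inferred from correlations of 0.164, 0.159 and 0.139 in these same libraries. Within the pairs the active tumour was above the sedentary one at 36, 26 and 25 of the 39 members for replicates 1, 2 and 3, against 50.4%, 47.7% and 48.6% of all genes, with median log2 differences of 0.63, 0.14 and 0.13. With both replicate 1 tumours left out, an alternative chosen after seeing the data, the member median was 0.13, with 29 above and 10 below 0, and limma called 0 members and 0 genes. In each inferred pair most members were higher in the active tumour, with the highest median in replicate 1. Because the pairs came from the same data, they do not settle the sign of the difference. Without sedentary replicate 1 alone, the IFIT proteins, at a median of 0.66 with 4 of 4 above 0, went to -0.22 with 1 of 4, and the oligoadenylate synthetases from 0.29 to -0.38. The summed macrophage markers of sedentary replicate 1 were 8296, against 13858 to 17291 in the other 5, and their part in the result was not tested. Of the lists outside the members, 14 of 18 type II leaning genes and 25 of 39 other type I induced genes were above 0 with medians of 0.32 and 0.17, and none was called. Without sedentary replicate 1 those medians were -0.20 and -0.30. Log2 differences were 0.21 for Irf1, 0.16 for Ifnar1 and 0.05 for Ifnar2.

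**Figure D3:**
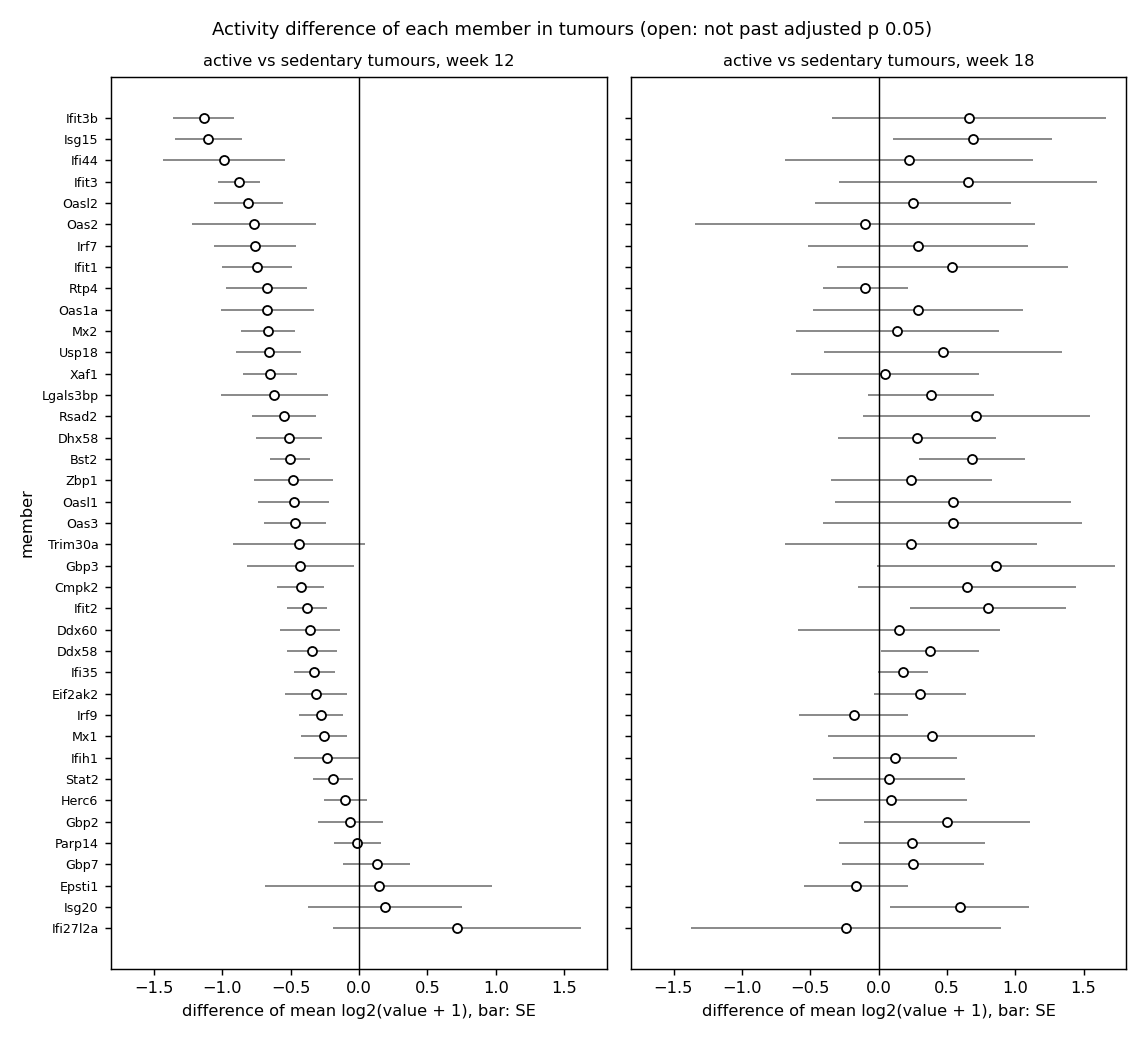
Difference of mean log2(value + 1) between active and sedentary tumours for each of the 39 members (rows, in the order of week 12), at week 12 (left) and week 18 (right), with SE bars (n = 3 per group) and open points for members that did not pass an adjusted p-value of 0.05 in limma. At week 12, 35 members are left of 0, and at week 18, 34 are right of 0 with wider bars.

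Whether the activity difference itself changed between the weeks was tested over all 12 tumours, as the week 18 difference minus the week 12 difference. It was above 0 at 37 of 39 members, against 48.5% of all genes, with a median of 0.72 on the log2 scale against -0.02. limma called 0 members and 0.0104% of all genes, edgeR and DESeq2 called 0 members, and 3 members had an unadjusted p-value under 0.05, against 6.33% of all genes. Those were Bst2 at 1.19 ± 0.43 (limma adjusted p-value 0.701), Isg15 at 1.79 ± 0.67 (limma adjusted p-value 0.731) and Ifi35, a binding partner of other induced proteins, at 0.51 ± 0.22 (limma adjusted p-value 0.770). The members below 0 were Ifi27l2a at -0.95 and Epsti1 at -0.31. Ifi35 had values of 1073, 968 and 1184 in active tumours at week 12 and 1001, 1242 and 1096 at week 18. Without sedentary replicate 1 of week 18 the median was 0.27. With all 12 tumours the 2 activity differences had opposite signs at most members, but a difference between them was not shown for any single member. The opposite signs depended on sedentary replicate 1 of week 18. Without it the week 18 median was -0.26, below 0 as at week 12.

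Within a group, the weeks were compared after rescaling the recovered reads of the 6 tumours together. In sedentary tumours all 39 members lay lower at week 18, against 51.3% of all genes, with a median log2 difference of -0.91 against -0.01 over all genes. limma called 0 members and 0% of 18968 genes, 2 members had an unadjusted p-value under 0.05 against 4.97% of all genes, edgeR and DESeq2 called 0 members, and 14 members did not overlap between weeks, against 5.87% of all genes in that direction. Ifi35 had 1301, 1321 and 1289.8 at week 12 and 820.3, 1095 and 973 at week 18. These weeks did not overlap, with a log2 difference of -0.45 ± 0.16 (limma adjusted p-value 0.918). Isg15 had 1773, 1179 and 1242 at week 12 and 283, 940.5 and 723 at week 18, a log2 difference of -1.25 ± 0.49 (limma adjusted p-value 0.982). Its 3 tumours of week 18 were each below the 3 of week 12. Lgals3bp differed by -1.28, with 17393, 7919 and 6978 at week 12 and 2041, 6362 and 5121 at week 18. Without sedentary replicate 1 of week 18 the median was -0.32. Type II leaning genes were below 0 at 18 of 18 and other type I induced genes at 37 of 39, with medians of -0.70 and -0.55, which became -0.11 and -0.15 without that tumour. Skeletal muscle markers lay lower at week 18 at 8 of 8, with a median log2 difference of -4.72 and summed values of 51033 to 110958 at week 12 and 382 to 11000.3 at week 18, and their part in the result was not tested. Irf1, Ifnar1 and Ifnar2 differed by 0.03, -0.01 and 0.01, none called.

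In active tumours 15 members were above and 24 below 0, against 52.3% of all genes below 0, with a median of -0.08 against -0.03 over all genes. limma called 0 members and 0% of 19188 genes, and 0 members had an unadjusted p-value under 0.05 against 12.1% of all genes. edgeR called 0 members, and DESeq2 called 1 of 39, Ifi27l2a, against 886 of the 19188 genes. Bst2 was the sole member whose weeks did not overlap, against 24.8% of all genes, with 2277, 2289.7 and 2332 at week 12 and 2595, 3182 and 3225 at week 18 (log2 difference 0.38 ± 0.16, limma adjusted p-value 0.421). Ifi27l2a had 2055, 628 and 7680.3 at week 12 and 134, 645 and 525 at week 18, a log2 difference of -2.59 ± 1.09 (limma adjusted p-value 0.418). Its highest tumour was active replicate 3 of week 12, and its weeks overlapped. Without that tumour the median over all members was -0.29, and the test of the difference between the activity effects called 0 members. Over all active tumours left out in turn, the median ran from -0.32 to 0.33. Isg15 had 763, 749 and 539.8 at week 12 and 556, 1294 and 1301 at week 18, a log2 difference of 0.53, and Ifit2 855, 870.3 and 1010.3 and 966, 1553 and 987, a log2 difference of 0.33. Parp14, an ADP-ribosyltransferase, had 3712, 3419 and 4047 at week 12 and 2392, 3562 and 2457 at week 18, a log2 difference of -0.43. Lgals3bp had 6269, 6176 and 8036 and 6529, 5474 and 4799.6, a log2 difference of -0.29. The weeks overlapped for these 4 genes. Type II leaning genes were below 0 at 15 of 18 with a median of -1.06, or -0.47 without active replicate 3 of week 12, and log2 differences were -0.01 for Irf1, -0.02 for Ifnar1 and -0.05 for Ifnar2. The comparisons within sedentary and within active tumours share no tumour, and each shares tumours with the activity comparisons.

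In HSC the members were compared first between active and sedentary mice at week 12. Of 35 members 23 were above 0, against 50.5% of all genes, with a median log2 difference of 0.35 against 0.00. limma called 0 members and 0% of 13513 genes, and edgeR and DESeq2 called 0 members. At an unadjusted p-value under 0.05 there were 7 members, 6 higher and 1 lower, against 9.27% of all genes. Groups did not overlap at 9 members, against 19.7% of all genes.

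Ifih1 had values of 302, 354 and 276 in sedentary and 380.1, 507 and 410.3 in active HSC. Every active library was above every sedentary one, with a log2 difference of 0.47 ± 0.17 (limma adjusted p-value 0.475). Oas3 had 25.3, 40.2 and 46.1 in sedentary and 65.3, 66.9 and 49.3 in active HSC, a log2 difference of 0.72 ± 0.27. Oas2, another synthetase, had 11.9, 20.9 and 8.14 and 27.2, 50.1 and 19.4, a log2 difference of 1.17 ± 0.46. The groups were apart for Oas3 and overlapped for Oas2. Rtp4 had 14.9, 17.7 and 11.8 in sedentary and 6.53, 3.86 and 4.48 in active HSC, with a log2 difference of -1.41 ± 0.23 (limma adjusted p-value 0.475). All 3 active libraries were below the sedentary ones, at few reads. Gbp3, another guanylate-binding GTPase, had 718, 607 and 521 and 518, 374 and 473, apart with a log2 difference of -0.44. Epsti1 had 234, 231 and 111 and 106, 81.0 and 134, a log2 difference of -0.79 with overlap.

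These HSC differences depended on which column of active replicate 2 was used. With the other column, rescaled with the same 5 libraries, Ifih1 was at 316 against 302 to 391.5 in sedentary HSC, and Oas3 at 27.1 against 27.9 to 50.7. Their log2 differences became 0.20 and 0.25. Rtp4 was at 25.8 against 12.9 to 19.6, above every sedentary library, and its log2 difference became -0.64. Oas2 went to 0.43, Gbp3 to -0.22 and Epsti1 to -0.52, and the groups overlapped for all 6 genes. Groups did not overlap at 3 of 35 members with that column, against 6.17% of all genes.

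By role, all 6 sensors were above 0 with a median of 0.49, as were the 3 nucleotide and RNA enzymes with 0.80, whereas the other induced genes had a median of -0.36 with 3 of 9 above 0. With the other column of active replicate 2 the median over all members was 0.09 and that of the sensors 0.16. Without active replicate 2 the median over all members was 0.19. That library had summed neutrophil markers of 112469 in one column and 2014 in the other. Active replicates 1 and 3 had 9722 and 2217, and sedentary HSC had 1316 to 1860. The part of these markers in the result was not tested. In the authors' deposited table no member passed an adjusted p-value of 0.05, against 1.65% of all genes. Of the pathway lists, 5 of 6 receptors, 8 of 9 JAK-STAT genes and 11 of 14 sensing genes were above 0, with medians of 0.25, 0.11 and 0.28, and none was called. Log2 differences were -0.14 for Irf1, 0.25 for Ifnar1 and -0.17 for Ifnar2.

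Transplant HSC were then compared with HSC of active mice, the kind of mouse that had given the transplanted cells. Of 35 members 24 were above 0, against 50% of all genes, with a median log2 difference of 0.31 against 0.00. limma called 0 members and 0.0513% of 13633 genes, while 9 members had an unadjusted p-value under 0.05, against 17.8% of all genes, and edgeR called 0 members. DESeq2 called 3 of 35, against 8.12% of all genes. Groups did not overlap at 13 members, against 25.2% of all genes.

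Cmpk2, a mitochondrial nucleotide kinase, had values of 253, 181 and 240.0 in active and 418, 387 and 459 in transplant HSC. No active library reached a transplant library, and the log2 difference was 0.92 ± 0.17 (limma adjusted p-value 0.158). Isg20 had 61.7, 42.9 and 38.9 in active and 108, 118 and 89.2 in transplant HSC, a log2 difference of 1.14 ± 0.22 (limma adjusted p-value 0.164). Ifit2 had 339, 264 and 458 in active and 752, 765 and 742 in transplant HSC, a log2 difference of 1.12 ± 0.21 (limma adjusted p-value 0.165). The groups were apart for all 3 genes. The authors' deposited table put these 3 past an adjusted p-value of 0.05, with log2 fold changes of 0.91 for Cmpk2, 1.16 for Isg20 and 1.09 for Ifit2, against 7.92% of all genes.

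With the other column of active replicate 2, Cmpk2 was at 590.0 in that library against 437 to 519 in transplant HSC, and its log2 difference was 0.41. Ifit2 was at 1054 against 838 to 863, with a log2 difference of 0.52. That library thus lay above all transplant libraries for both genes. Isg20 was at 67.5 against 101 to 133, still apart, with a log2 difference of 0.98. Groups did not overlap at 5 members with that column, against 6% of all genes.

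Members below 0 included Ifi44, an induced GTP-binding protein, with 4.75, 5.36 and 4.96 in active and 2.81, 0 and 1.22 in transplant HSC. The transplant libraries held at most 3 reads of it each, so no fold is given. Epsti1 had 115, 154 and 149 in active and 109, 101 and 112 in transplant HSC, apart with a log2 difference of -0.36. Rtp4 had 7.12, 25.5 and 4.96 and 4.21, 1.22 and 4.87, with the transplant libraries again lowest. With the other column of active replicate 2 the log2 differences were -0.09 for Epsti1 and -0.65 for Rtp4, and the groups overlapped for Ifi44, Epsti1 and Rtp4. The median over all members was then 0.13. Marker levels of other cells lay apart as well: 7 of 7 neutrophil and 6 of 6 megakaryocyte markers lay higher in transplant HSC, with median log2 differences of 2.87 and 2.15, and 7 of 7 plasmacytoid dendritic cell markers lay lower, with a median of -2.05. None was called by limma, and their part in the result was not tested. No gene of the pathway lists was called, and other type I induced genes were above 0 at 24 of 38 with a median of 0.13. Log2 differences were -0.19 for Irf1, -0.02 for Ifnar1 and -0.34 for Ifnar2.

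The third HSC comparison set transplant against sedentary HSC, on recovered reads of the 6 libraries joined by symbol and rescaled together. Here members passed the test: 7 of 35 rose and 1 fell in transplant HSC, against 7.94% and 3.71% of all genes, so 22.9% of the members were called against 11.7% of 13329 genes. The genes that rose were Isg20, Ifit2, Cmpk2, Rsad2, Dhx58, Oas3 and Usp18, and Rtp4 fell. Of the 35 members 23 were above 0, against 50% of all genes, with a median log2 difference of 0.40 against 0.00. Groups did not overlap at 19 members, against 38.8% of all genes, and 20 members had an unadjusted p-value under 0.05, against 31.7%. The week 12 sedentary libraries also serve the active against sedentary comparison.

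All 3 nucleotide and RNA enzymes rose. Isg20 had values of 40.6, 33.3 and 28.7 in sedentary and 108, 118 and 89.2 in transplant HSC. Each transplant library was above each sedentary library, with a log2 difference of 1.59 ± 0.18 (limma adjusted p-value 0.0107). Cmpk2 had 182, 137 and 241 in sedentary and 418, 386 and 459 in transplant HSC, a log2 difference of 1.21 ± 0.22 (limma adjusted p-value 0.0293). Rsad2, a radical enzyme that makes a chain-terminating nucleotide, had 6.50, 7.0 and 11.9 in sedentary and 44.9, 36.4 and 20.7 in transplant HSC, a log2 difference of 1.86 ± 0.35 (limma adjusted p-value 0.0302). These neighbours on chromosome 12 both stood apart between the groups, with at most 24 reads of Rsad2 in a sedentary library.

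Among the IFIT proteins Ifit2 rose, with 360.5, 320.3 and 405 in sedentary and 751, 764 and 742 in transplant HSC and a log2 difference of 1.06 ± 0.12 (limma adjusted p-value 0.0115). Its transplant libraries were nearly equal and well above the sedentary ones. Ifit1 had 6.50, 1.75 and 0.496 and 2.80, 14.6 and 10.1, overlapped and was not called. Within the ISG15 system Usp18 rose, with 22.7, 12.3 and 28.7 in sedentary and 64.5, 58.3 and 46.6 in transplant HSC, a log2 difference of 1.44 ± 0.32 (limma adjusted p-value 0.0453). Usp18 had as few as 7 reads in a sedentary library. Isg15 itself had 16.2, 5.25 and 5.95 and 29.4, 21.9 and 20.7, apart but with a limma adjusted p-value of 0.0773.

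Of the oligoadenylate synthetases, Oas3 rose, with 27.6, 43.8 and 50.6 in sedentary and 85.5, 77.7 and 101 in transplant HSC, a log2 difference of 1.13 ± 0.25 (limma adjusted p-value 0.0430). Of the 6 sensors, all above 0, Dhx58 rose, with 127, 131 and 114 in sedentary and 239.7, 171 and 206 in transplant HSC, a log2 difference of 0.72 ± 0.16 (limma adjusted p-value 0.0425). Both genes had groups that did not overlap. Ddx58, which detects short RNA with a 5′ triphosphate, differed by 0.71 and just missed the threshold, with a limma adjusted p-value of 0.0530. Among the other induced genes Rtp4 fell, with 16.2, 19.3 and 12.9 in sedentary and 4.21, 1.21 and 4.87 in transplant HSC, a log2 difference of -2.05 ± 0.40 (limma adjusted p-value 0.0335). It rests on at most 12 reads per transplant library and at most 26 per sedentary library. The 4 dynamin-like GTPases lay below 0, from -0.69 for Mx1 to -0.07 for Gbp2, and none was called.

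**Figure D4:**
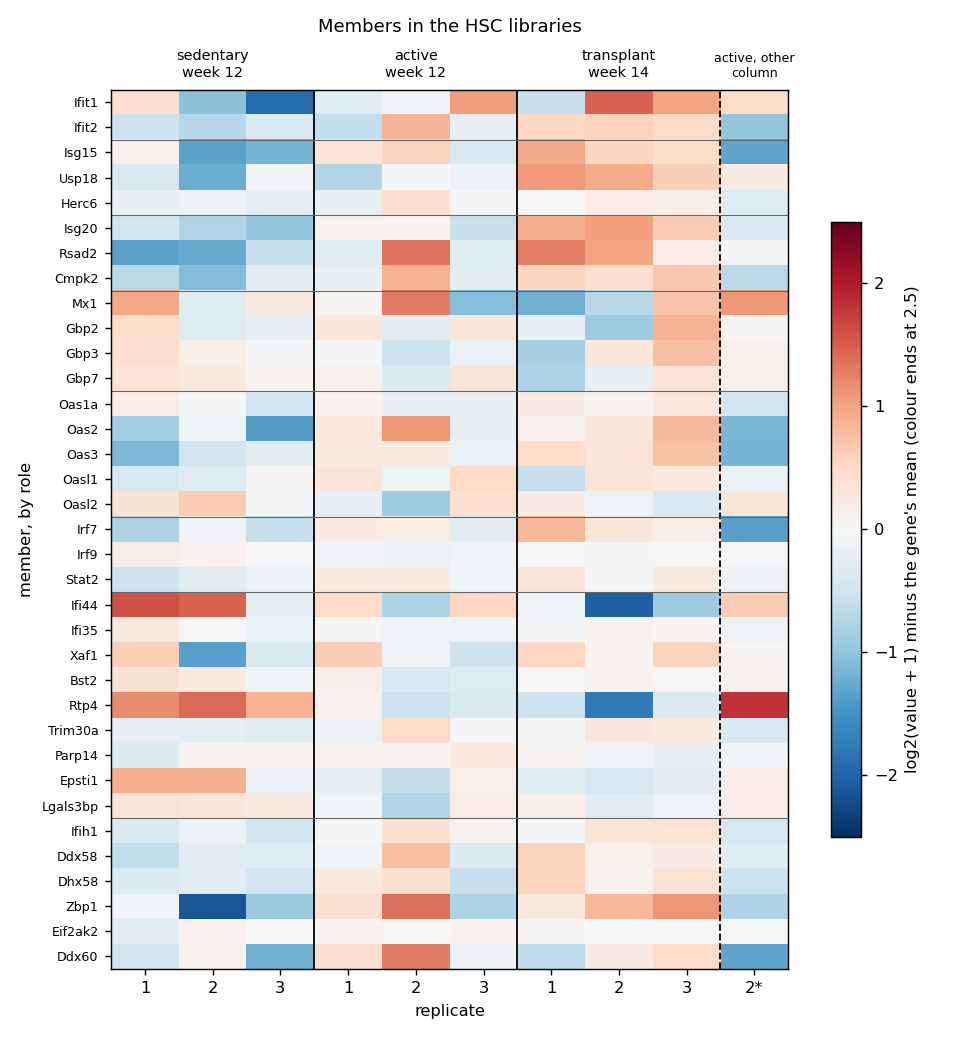
Log2(value + 1) of each of the 35 members (rows, by role) in sedentary, active and transplant HSC (columns, 3 replicates per group), minus the member's mean over those 9 libraries, in colour, with the other column of active replicate 2 marked 2*. Isg20, Cmpk2, Ifit2 and Usp18 are above their means in all 3 transplant libraries.

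The number of calls depended on single libraries, over the members and over all genes. limma called 0 members without sedentary replicate 2, where 1.77% of all genes were called, and 3 without sedentary replicate 1 (2.21% of all genes). It called 2 without transplant replicate 1 (3.6%) and 2 without transplant replicate 2 (1.91%). It called 4 without transplant replicate 3 (12.6%) and 7 without sedentary replicate 3 (11%). On the recovered reads edgeR called 8 members and 19.3% of all genes, and DESeq2 12 members and 23.9% of all genes. With the replicate number as a block limma called 0 members and 0.713% of all genes. The replicate 3 libraries were sequenced more deeply than the others in every HSC group, and without them, on replicates 1 and 2 of both groups, limma called 6 members and 14.7% of all genes. Summed marker values lay apart between the groups. Neutrophil markers were 1316 to 1860 in sedentary and 20494 to 24599 in transplant HSC, and megakaryocyte markers 2111 to 3811 and 8977 to 25984. Dendritic cell markers were 2495 to 2828 and 156 to 410, and stem cell markers 27097 to 29911 and 17701 to 20113. By gene, 7 of 7 neutrophil and 6 of 6 megakaryocyte markers lay higher in transplant HSC. The dendritic cell list was mixed, with 1 higher and 3 lower, as was the stem cell list, with 3 higher and 7 lower. The part of these markers in the result was not tested.

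**Figure D5:**
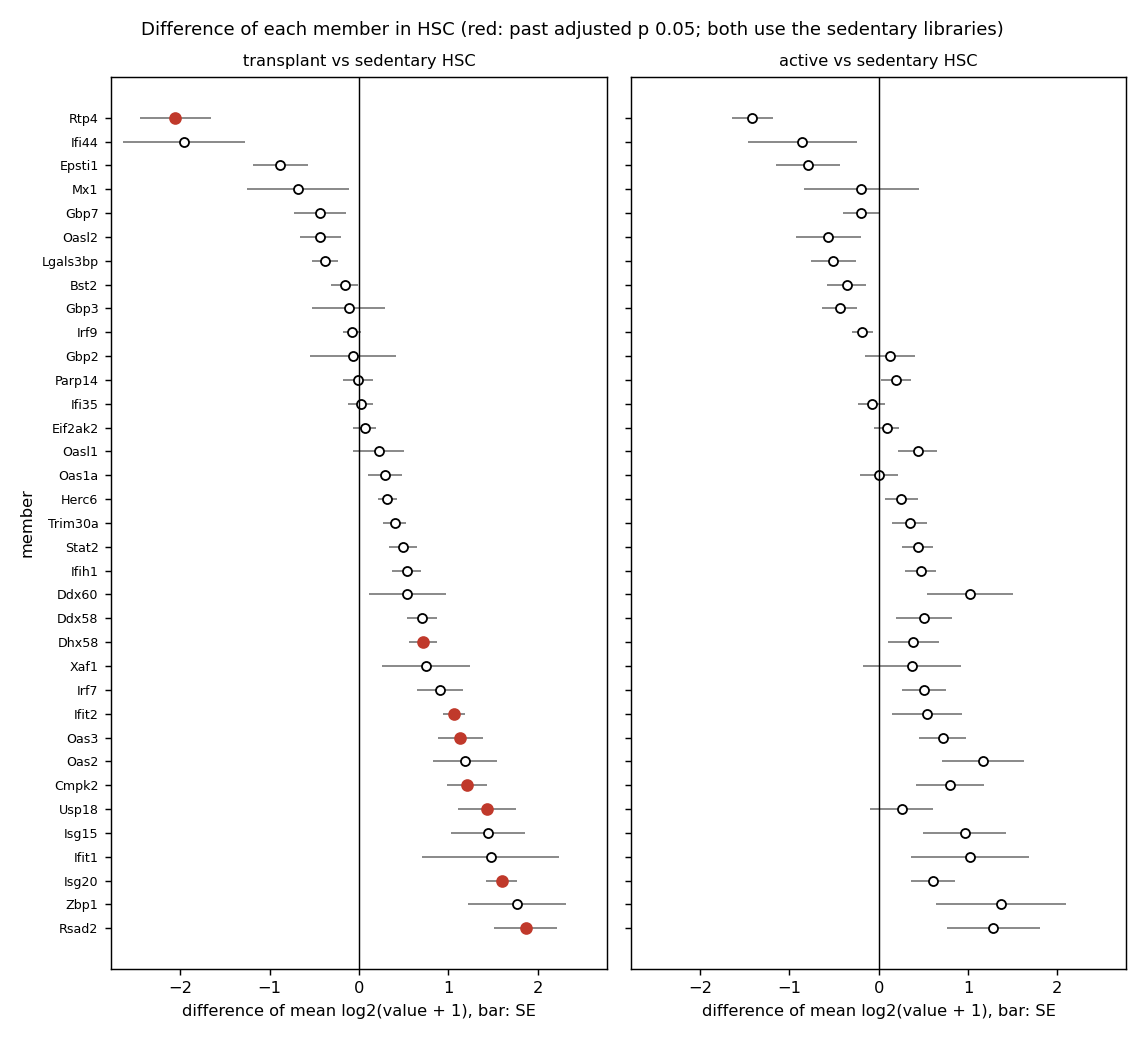
Difference of mean log2(value + 1) for each of the 35 members (rows), transplant against sedentary HSC (left) and active against sedentary HSC (right), with SE bars (n = 3 per group), both against the same sedentary libraries. Red points passed an adjusted p-value of 0.05 in limma, 8 on the left and 0 on the right.

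Other genes of the pathway passed the test in transplant against sedentary HSC in both directions, where 11.7% of all genes passed. Of 6 receptors 2 rose, of 9 JAK-STAT genes 1 rose, of 7 interferon regulatory factors outside the members 1 fell, and of 14 genes that sense nucleic acid upstream of interferon 3 rose and 1 fell. Of 16 type II leaning genes 1 fell, and of 38 other type I induced genes 8 rose and 2 fell. Irf8, a factor of dendritic and myeloid cells, fell from 3824 ± 277 to 1383 ± 201.1 (mean ± SD, n = 3), a log2 difference of -1.47 ± 0.15 (limma adjusted p-value 0.00917). Tmem173, the adaptor of cytosolic DNA sensing known as STING, fell from 6149 ± 481 to 2450.0 ± 313 (limma adjusted p-value 0.0105). Ikbke, a kinase that phosphorylates IRF3, rose from 692 ± 130.2 to 2284 ± 395 (limma adjusted p-value 0.0108).

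Ifngr1, a chain of the type II receptor, rose from 2622 ± 109 to 5109 ± 646 (limma adjusted p-value 0.0158). Ifnlr1, a chain of the type III receptor, had 0 reads in each sedentary library and 7, 15 and 5 reads in the transplant libraries. The transplant mean was 2.59-fold above a floor of 3 reads per sedentary library. The normalised value of transplant replicate 3, at 2.03, lay below that floor, at 3.87. Ifi204, a sensor of DNA, rose from 22.0 ± 6.79 to 86.1 ± 10.1 (limma adjusted p-value 0.0127), and Slfn4, a myeloid Schlafen gene, from 14.9 ± 2.81 to 66.7 ± 24.0 (limma adjusted p-value 0.0158). Both chains of the type I receptor and Irf1 were not called, with log2 differences of 0.14 for Ifnar1, -0.45 for Ifnar2 and -0.20 for Irf1. Without sedentary replicate 2, the library whose absence removed all member calls, Irf8 was still called, and of the 14 sensing genes 1 rose and 1 fell.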

How the data were processed

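Gene expression was measured by RNA sequencing in 12 mammary tumours and 9 sorted HSC libraries. The deposited values are a normalised signal per gene; 100% of the values of each column came out as whole multiples of 1 step (tolerance 0.05 reads), so the authors divided gene counts by 1 factor per library. The step of sedentary tumour replicate 3 of week 18 was 0.991, near 1, which leaves the check of whole multiples weak there. The authors' deposited tables also hold log2 fold changes and p-values of their own comparisons. Aligner and counter are not given in the sources used here. The build is mm10, per the submitters' processing notes, and libraries were stranded mRNA libraries per the labels' protocols. Median-of-ratios scaling of the recovered reads of all 12 tumours returned the deposited tumour values (largest difference 0%), so both tumour tables share 1 scale.

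limma 3.58.1 in R 4.3.3 was run on log2(value + 1), a scale that understates the change of low genes, for genes whose mean reached 1 in one of the groups, with Benjamini-Hochberg adjustment over all genes tested and a threshold of 0.05. Comparisons between weeks and of transplant with sedentary HSC used recovered reads, joined on symbols and rescaled by the median of ratios. edgeR 4.0.16 (quasi-likelihood) and DESeq2 1.42.0 on recovered reads, other pseudocounts and filters, TMM scaling, the replicate number as a block and leaving out each library were alternatives. Members past the threshold were named (up to 12, smallest p first), and, where fewer than 6 passed, also the 3 members above 0 and the 3 below 0 with the smallest p-values. Of the pathway lists up to 6 called genes were named, and Irf1, Ifnar1 and Ifnar2 always, with 1 further gene of that rule not reported here. Other genes were named for their role, after their values were seen. Members and lists were chosen with earlier results of these data known.

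Replicate numbers were checked by correlating, across genes, how far libraries of one number lay from the means of their groups. All 3 correlations exceeded 0.1 for tumours at week 18 (0.164, 0.159 and 0.139) and for transplant against active HSC (0.105, 0.116 and 0.318). Numbers were therefore taken as pairs there, though the labels do not state pairs, and the block called 0 members in both. The scripts were tested on simulated data.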

Additional observations from a re-analysis of the deposited data

How the results depend on the processing

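With 3 libraries per group the spread between libraries limits what limma can call. In HSC 9 of 35 members had a median normalised value under 20, with both columns of active replicate 2 counted. Leaving out 1 library at a time, the member median kept its sign in all comparisons except tumours at week 18, where it ran from -0.26 to 0.72, and weeks in active tumours, where it ran from -0.32 to 0.33. The same range was -0.55 to -0.39 at week 12, 0.27 to 1.20 for the difference between weeks, 0.187 to 0.381 for active against sedentary HSC and 0.143 to 0.377 for transplant against active HSC. With the other column of active replicate 2 the last pair of medians became 0.0918 and 0.129.

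DESeq2 called 4 members at week 12, 1 between weeks in active tumours and 3 in transplant against active HSC, where limma called 0. For transplant against sedentary HSC, where limma called 8, a pseudocount of 0.1 gave 5, and leaving out 1 library gave 0 to 7. With a median in place of a mean as score, the difference was -0.266 instead of 0.238 for active and 0.00428 instead of 0.367 for transplant, both against sedentary HSC. Some members changed sign when 1 library was left out. At week 12 Ifi27l2a ranged from -0.209 to 1.60, Gbp7 from -0.0955 to 0.317 and Isg20 from -0.401 to 0.628, each below 0 without active replicate 3. At week 18 Irf9 ranged from -0.417 to 0.181 and Rtp4 from -0.31 to 0.147, above 0 without sedentary replicate 2 or active replicate 1, and Epsti1 from -0.513 to 0.167, above 0 without active replicate 2. In the difference between weeks Epsti1 ranged from -0.828 to 0.575, above 0 without sedentary replicate 3 or active replicate 3 of week 12 or active replicate 2 of week 18. The cause was not tested.

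With the replicate number as a block, transplant against sedentary HSC gave 0 member calls instead of 8, with adjusted p-values in limma from 0.0516 to 0.122 for those 8, and 95 calls over all genes instead of 1553. There the same-number correlations were -0.11, 0.16 and 0.05, which does not meet the rule for pairs. Replicate 3 of each HSC group had more reads and a shared style of label, and whether it marks a batch is not given in the sources used here. Over all genes the block gave 0 instead of 99 at week 12, 69 instead of 2 for the difference between weeks and 0 instead of 7 for transplant against active HSC. The block changed no other count of member calls. DESeq2 called 208 genes at week 12, 52 at week 18, 174 for the difference between weeks, 172 and 886 between weeks in sedentary and active tumours, and 257, 1107 and 3181 in the HSC comparisons, in the order of the report, and edgeR 2566 in the last.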

Other observations

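Members with and without the response element letters in their promoter were set side by side. At week 12 in tumours the 17 with a match had a median log2 difference of -0.44 and the 13 without a match -0.43. At week 18 the medians were 0.50 and 0.25, with 17 of 17 and 11 of 13 above 0. In transplant against sedentary HSC the medians were 0.49 over 15 and 0.22 over 13 members. Of these, 2 and 3 members were called by limma, where 11.7% of all genes were. These are descriptions of the same libraries, and no difference between the sets was tested.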
